A study of Brassica napus with 74 samples.

Results

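The genes described here are the 150 genes of *B. napus* with the most PEN-centred transcript levels early in seed development. They were picked from 101040 genes in the table of TPM (each library's share of transcripts, a value already divided by gene length, so that levels of different genes can be compared). For each gene, log2(TPM + 1) was averaged over the libraries of each subregion. The score of a gene was its lower mean of the globular PEN (gPEN) and the heart PEN (hPEN) minus the highest mean among the 14 other globular and heart subregions. Scores were above 0 for 408 genes, and the 150 highest were kept, without the GH9B9 pair BnaA05g04120D and BnaC04g03840D. The PEN excess was therefore what chose these genes, and it is given as a description with no test.

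The endosperm of oilseed rape and its relatives is the second product of double fertilization and nourishes the embryo. Its nuclei first divide without cell walls, so that the PEN is at first a sheet of shared cytoplasm around the central vacuole, pressed against the ISC and placed between the MCE around the embryo and the CZE at the other pole. The PEN later forms cell walls and is largely consumed by the growing embryo. *B. napus* carries an An and a Cn subgenome, so many genes have a homoeologous copy.

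All libraries came from hand-pollinated seeds of cv. Topas grown under long days, with no other genotype and no treatment. Subregions were cut by laser microdissection (LMD) from fixed, paraffin-embedded sections at 0 days (ovule, ov), 7 days (globular, g), 10 days (heart, h), and 28 days (mature green, mg) after pollination, and each library was a pool of many sections from several plants. The regions were the embryo proper (EP), the micropylar, peripheral, and chalazal endosperm (MCE, PEN, and CZE), the inner, outer, and chalazal seed coat (ISC, OSC, and CZSC), and the chalazal proliferating tissue (CPT), with the mature green embryo split into cotyledons (COT) and root (ROOT). There were 74 libraries from 26 subregions, of which the score used 48, and the gPEN and the hPEN had 2 libraries each. Groups follow the sample titles. For 4 mature green libraries the tissue field names something else than the title or than the other libraries of the subregion: both mgCOT replicates 1 and 2 are labelled as seed coat, mgCPT replicate 1 as endosperm, and mgCZSC replicate 1 as chalaza. In such dissected samples, fewer cells that transcribe a gene and less RNA per cell cannot be told apart.

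The recovered reads, a lower limit of depth, ran from 1858549 to 3227901 in the PEN libraries and from 61326 to 8381529 in the other globular and heart libraries, with the lowest in gMCE replicate 1. GH9B9, an endosperm marker, summed to 1126 and 1305 TPM over its 2 copies in the gPEN libraries and to 8.05 and 20.1 TPM in the hPEN libraries, so that at the heart stage this marker was low in the libraries labelled PEN. The 2 copies of CEP1, a marker of the inner maternal tissue, summed to between 2.66 and 2.68 TPM in the gPEN and to between 15.0 and 17.7 TPM in the hPEN, against 627 to 897 TPM in the gISC and 3890.1 to 6764 TPM in the hISC. Libraries of a subregion were not always alike. The 150 genes summed to between 1332 and 1504 TPM in gMCE replicates 1 to 3 but to 8794 and 8507 TPM in gMCE replicates 4 and 5. They summed to 1339 TPM in hISC replicate 1 and to 365 and 412 TPM in the other hISC libraries. With gMCE replicates 4 and 5 left out, 132 of the 150 genes were still among the 150 of highest score, and 107 were with gMCE replicates 1 to 3 left out, a check added after the data were seen.

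The members made up a visible share of the PEN transcriptome. Their summed level was 20827 and 32158 TPM in the gPEN libraries, or 2.08% and 3.22% of all transcripts, and 8549 and 9653 TPM in the hPEN libraries. Outside the PEN and the 2 high gMCE libraries, the sum stayed at or below 3404 TPM in every globular and heart library, and this highest value was in gCZE replicate 2. The EP libraries lay between 321 and 682 TPM. In the mature green embryo the sum was between 25.1 and 55.0 TPM.

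**Figure D1:**
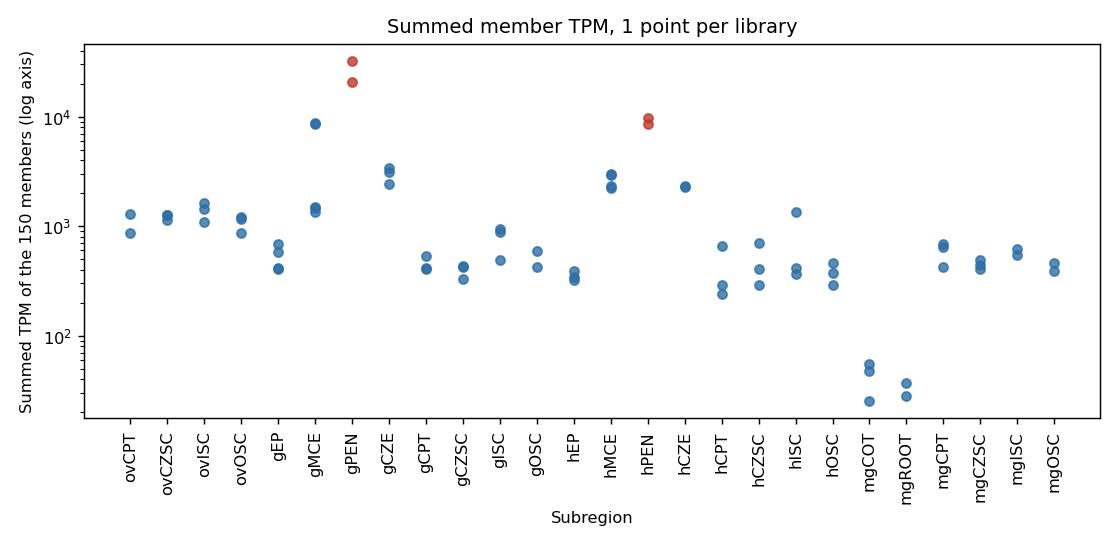
Summed TPM of the 150 member genes in every library (log axis), with 1 point per library, PEN libraries in red and all others in blue. The gPEN points lie at 20827 and 32158 TPM, the hPEN points at 8549 and 9653 TPM, and 2 of the 5 gMCE points reach 8507 and 8794 TPM.

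Endosperm came next to the PEN for most members. The subregion with the highest mean after the PEN was another endosperm subregion for 105 of the 150 genes: the hMCE for 40, the hCZE for 27, the gMCE for 21, and the gCZE for 17. It was a maternal subregion for 33 genes, led by the hCZSC with 14 and the gOSC with 11, and the EP for 12. All 4 PEN libraries were above each of the 44 other globular and heart libraries for 35 members. Among all genes this held for 0.0366%, and since the rule chose on this contrast nothing is read from the difference. With gMCE replicates 4 and 5 left out, 58 members stood apart in this way from the 42 other libraries. These replicates were picked after the data were seen, and no share over all genes was computed. Nothing is read from this count either.

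The members were a mixed set in level. The mean over the 4 PEN libraries ran from 1.499 to 1924 TPM, with a median of 18.4 TPM. Of the members, 29 had a mean of at least 100 TPM, 69 had 10 to 100 TPM, and 52 had less. All 29 abundant members had another endosperm subregion next to the PEN, as had 42 of the 69 and 34 of the 52. In 28 of the 29, the lower PEN mean was also above every ovule and mature green mean, as it was in 41 of the 69 and 37 of the 52. The rule chose on the PEN level, so these counts are a description. Reads could be recovered for 127 members, and 12 of these had fewer than 10 reads in at least 1 PEN library, so the low members are known less well. The An subgenome held 81 members and the Cn subgenome 69, so that Cn genes were 46.0% of the members and 55.8% of all genes placed on a subgenome.

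**Figure D2:**
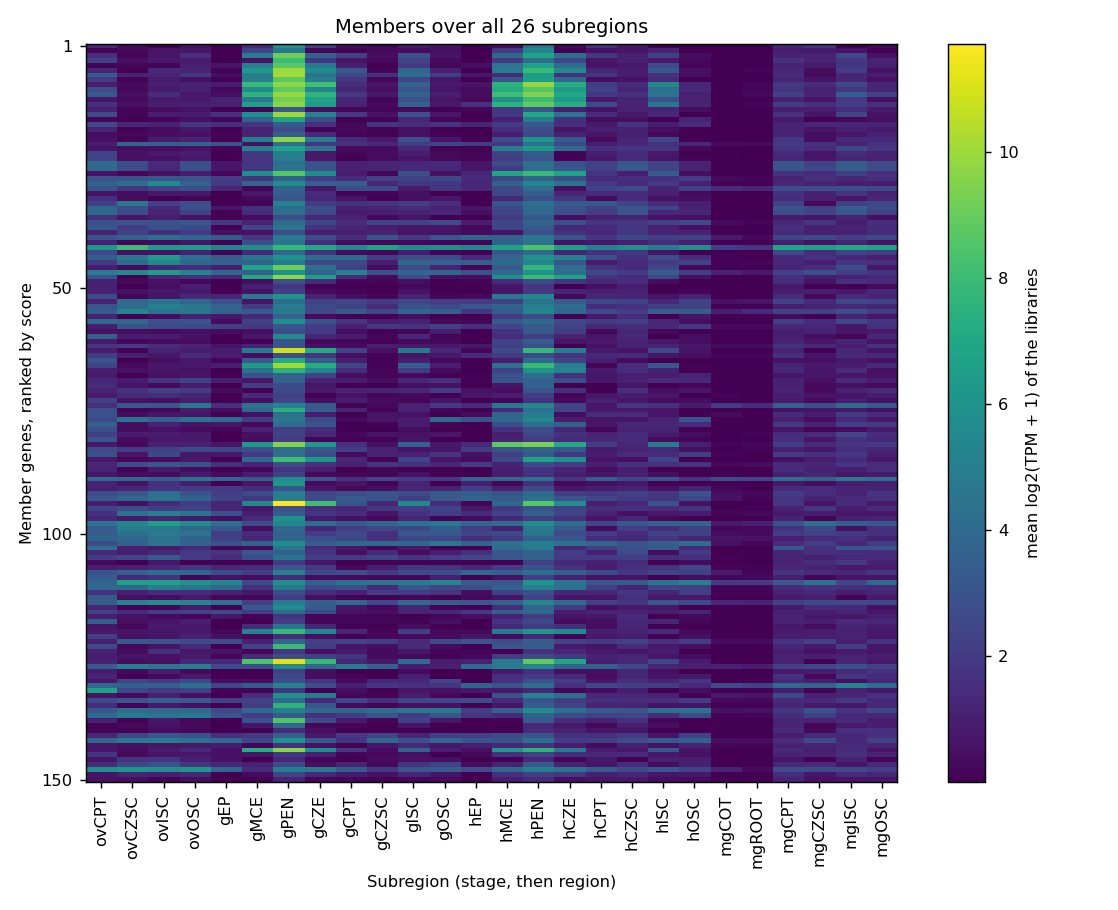
Mean log2(TPM + 1) of the 150 members, ranked by score from top to bottom, over all 26 subregions from ovule to mature green. The gPEN and hPEN columns are the brightest, the MCE and CZE columns come next for the abundant members, and the mgCOT and mgROOT columns are dark for nearly all.

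The highest score belonged to BnaC08g39600D, which no source used here names. Its level was 48.5 and 85.8 TPM in the gPEN libraries and 21.8 and 24.0 TPM in the hPEN libraries. No other globular or heart library exceeded 6.74 TPM, the value in gCZE replicate 1, and the EP libraries reached at most 0.0726 TPM. The gene of second rank, BnaA02g14120D, had the opposite order in time, with 21.9 and 24.6 TPM in the gPEN and 34.7 and 50.9 TPM in the hPEN. Its level was 15.0 TPM in gMCE replicate 5 and 10.0 TPM in hISC replicate 1. In the CZE libraries BnaA02g14120D stayed at or below 0.382 TPM, so that among endosperm subregions it was found in the PEN and in part of the MCE libraries.

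Most of the other high ranks were abundant genes that were higher in the gPEN than in the hPEN. BnaC03g16500D stood at 434 and 790.1 TPM in the gPEN and at 111 and 105 TPM in the hPEN. Its highest value elsewhere at these stages was 97.1 TPM in gMCE replicate 4. BnaA10g26720D was at 215 and 325 TPM in the gPEN and at 26.9 and 10.99 TPM in the hPEN, with at most 7.30 TPM in any other globular or heart library. For both genes the 4 PEN libraries were above all others of these stages.

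BnaC07g26840D had 977 and 1213 TPM in the gPEN and 86.1 and 104 TPM in the hPEN. Here gMCE replicate 4, at 119.7 TPM, lay above the hPEN libraries. BnaA02g24840D was as high in the hPEN (791 and 1110.1 TPM) as in the gPEN (688 and 1049.9 TPM). In the gMCE it split the libraries, with 64.4, 85.7, and 69.9 TPM in replicates 1 to 3 and 1343 and 1485 TPM in replicates 4 and 5, the latter above every PEN library. BnaC02g32990D split the gMCE libraries as well, with 729 and 1203 TPM in the gPEN, 583 and 843 TPM in the hPEN, 52.8 to 61.4 TPM in gMCE replicates 1 to 3, and 1099 and 1199 TPM in gMCE replicates 4 and 5, within the range of the gPEN libraries.

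BnaC06g12820D, of rank 12, had 481 and 789 TPM in the gPEN and 233 and 303 TPM in the hPEN. It too reached the hPEN level in 1 gMCE library, with 304 TPM in replicate 5. None of the 150 members carries a gene name in the sources used here, and a role can be given only for those with Gene Ontology (GO) terms.

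**Figure D3:**
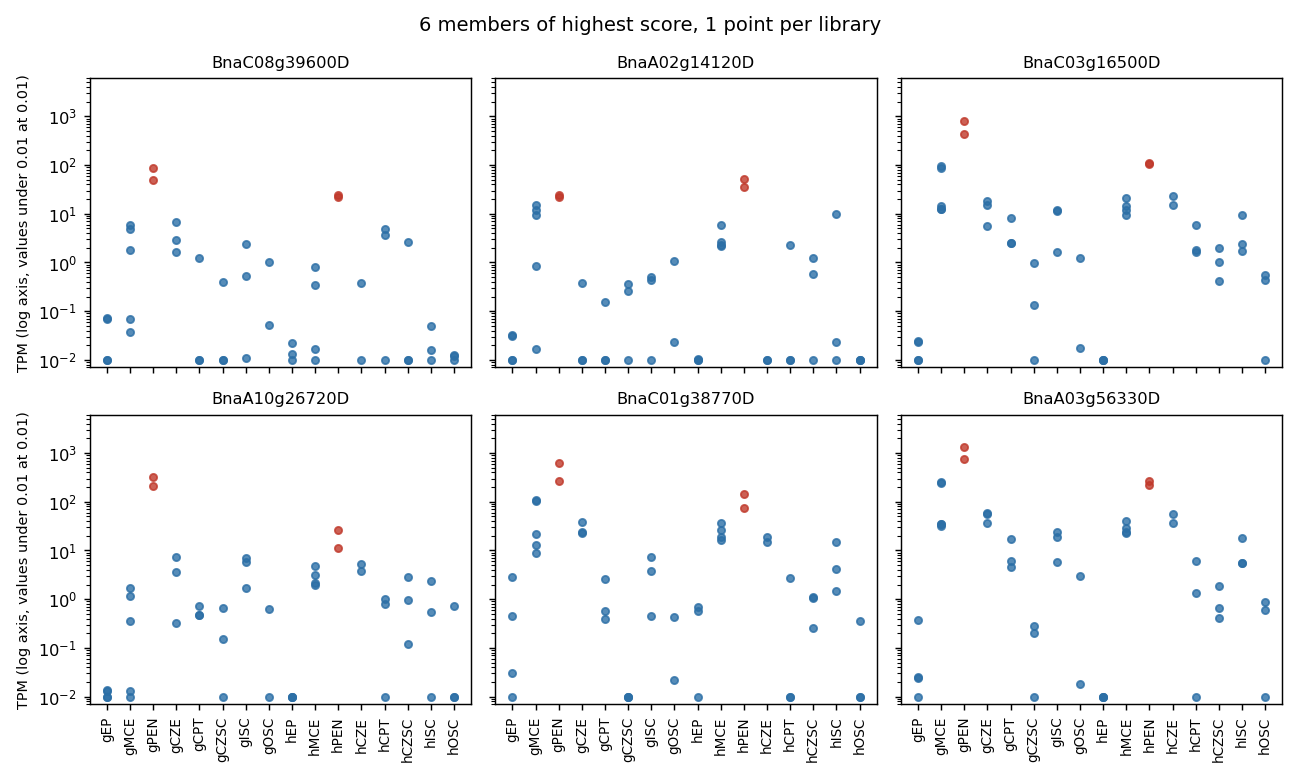
TPM of the 6 members of highest score in every globular and heart library (log axis, values under 0.01 drawn at 0.01), with 1 point per library and PEN libraries in red. In BnaC08g39600D, BnaA02g14120D, BnaC03g16500D, and BnaA10g26720D the 4 PEN points lie above all others, whereas in BnaC01g38770D and BnaA03g56330D a gMCE library reaches the lower hPEN points.

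The most abundant members were not those of highest score. BnaA01g06650D had the highest mean of all, with 2753 and 4141 TPM in the gPEN and 408 and 394 TPM in the hPEN. The gCZE came next at 282 ± 44.0 TPM (SD, n = 3), and no maternal library of these stages exceeded 94.9 TPM. BnaA02g14390D had 1789.6 and 3013 TPM in the gPEN and 459 and 432 TPM in the hPEN, and up to 1205 TPM in gMCE replicate 4. BnaC01g08000D, the listed Cn copy of BnaA01g06650D, had 1586 and 2248 TPM in the gPEN and 246 and 215 TPM in the hPEN.

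At the limit of the list the PEN excess was small. The last members were BnaA03g03180D with a score of 0.31, at 32.3 TPM in the gPEN, 34.0 TPM in the hPEN, and 28.1 TPM in the gCZE, then BnaAnng35860D at 4.32, 3.77, and 3.00 TPM in the gPEN, hPEN, and hCZE, and BnaA05g22050D at 1.27, 1.73, and 0.988 TPM in the gPEN, hPEN, and hMCE. Just outside lay BnaC06g12640D (7.26, 7.58, and 5.66 TPM in the gPEN, hPEN, and gCZE), BnaC05g46290D (1.06, 0.803, and 0.782 TPM in the gPEN, hPEN, and hMCE), and BnaC09g04870D (1325, 357, and 371 TPM in the gPEN, hPEN, and gMCE). The means of log2 values set the score, so that an arithmetic mean such as that of the gMCE can lie above the hPEN.

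GO terms were to hand for 8282 genes, and 19 members were among them. The list of plastid and photosynthesis terms, with 1416 of the 8282 genes, held 9 members. The transport list (333 genes) held 2, and those of cell wall (330) and hormone (484) held 1 each. The lists of transcription factors (556 genes), lipid (277), proteases and inhibitors (122), defensin-like peptides (26), cell cycle (245), and chromatin (258) held none. With only 19 annotated members, nothing is read from these counts.

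The annotated genes of highest level were 2 with terms for ribulose-bisphosphate carboxylase (Rubisco), the enzyme that fixes carbon dioxide in the chloroplast stroma. BnaC02g17140D was at 753 and 904 TPM in the gPEN and at 423 and 517 TPM in the hPEN. BnaA02g12810D was at 665 and 832 TPM in the gPEN and at 639 and 693 TPM in the hPEN, and hMCE replicate 2 came close to these at 616 TPM. Neither gene exceeded 4.44 TPM in an EP library or 9.03 TPM in a mature green maternal library. The other 2 genes with the same enzyme term, BnaA04g08570D and BnaC04g30810D, are not members and had another distribution. BnaA04g08570D was at 136 and 224 TPM in the gPEN and at 63.6 and 77.8 TPM in the hPEN, but at 303 TPM in the ovISC, 137 TPM in the gOSC, and 113 TPM in the hEP (means). BnaC04g30810D was at 135 and 225 TPM in the gPEN and at 41.6 and 47.2 TPM in the hPEN, and its means in the ovISC and hEP were 185 and 117 TPM.

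Each of the Rubisco-annotated members sits beside another member by identifier. BnaA02g12800D, next to BnaA02g12810D, was at 413 and 483 TPM in the gPEN and at 369.9 and 403 TPM in the hPEN. BnaC02g17150D, next to BnaC02g17140D, was at 351 and 413 TPM in the gPEN and at 224 and 252 TPM in the hPEN. In all 4 genes the PEN libraries were above the 44 other libraries of these stages. Neither BnaA02g12800D nor BnaC02g17150D has GO terms in the sources used here.

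**Figure D4:**
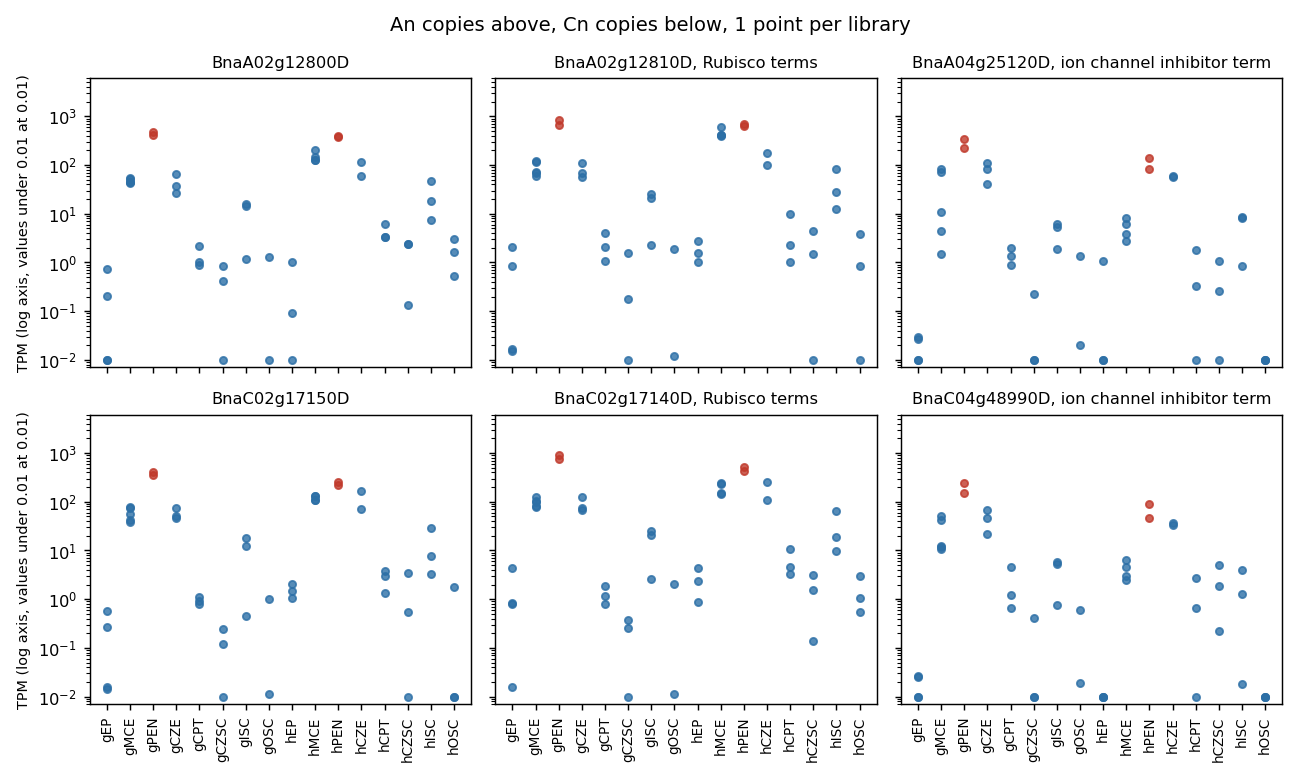
TPM of 4 members in 2 neighbour pairs with Rubisco terms and of the homoeologous pair annotated with ion channel inhibitor activity, in every globular and heart library (log axis, values under 0.01 drawn at 0.01), with An genes above, Cn genes below, and PEN libraries in red. PEN points of BnaA02g12810D lie between 639 and 832 TPM, and the MCE and CZE points of all 6 genes lie above most maternal points.

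Both copies of a pair annotated only with ion channel inhibitor activity were members. BnaA04g25120D was at 227 and 342 TPM in the gPEN and at 81.4 and 138 TPM in the hPEN, and BnaC04g48990D was at 148 and 248 TPM and at 47.5 and 88.1 TPM. Their highest values outside the PEN were in gCZE replicate 2, at 110.2 TPM for BnaA04g25120D and 68.1 TPM for BnaC04g48990D, which is within the range of the hPEN libraries for both. The neighbour of BnaA04g25120D by identifier, BnaA04g25130D, ranked 8, with 374 and 512 TPM in the gPEN and 76.2 and 127 TPM in the hPEN.

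Further plastid terms were found on genes of lower level. BnaC07g14870D and BnaAnng14750D, annotated with NADPH dehydrogenase activity in the thylakoid membrane and with photosynthesis, were at 26.9, 32.3, 14.7, and 23.4 TPM and at 28.0, 40.6, 17.0, and 21.7 TPM in gPEN replicates 1 and 2 and hPEN replicates 1 and 2. The hEP came next for both, at 12.6 ± 0.797 TPM in BnaC07g14870D and 14.0 ± 1.14 TPM in BnaAnng14750D (SD, n = 3). BnaA09g17750D, annotated as a peptidyl-prolyl isomerase of the thylakoid lumen, an enzyme class that helps proteins fold, stayed between 5.17 and 7.91 TPM in the PEN and between 1.94 and 4.68 TPM in the EP, but gMCE replicate 3, at 5.87 TPM, lay within the PEN range. BnaA07g04430D, annotated only as a chloroplast membrane protein, was at 11.3 and 12.7 TPM in the gPEN and at 17.5 and 17.4 TPM in the hPEN, and up to 26.4 TPM in an ovule library.

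BnaA10g03180D, annotated with ent-kaurenoate oxidase activity, a step of gibberellin synthesis, was low. Its PEN libraries read 7.57, 6.63, 2.99, and 12.2 TPM in the same order, so that the hPEN libraries lay on both sides of the gPEN, and the hMCE was next at 3.71 ± 1.48 TPM (SD, n = 4). BnaC04g05700D, with cell wall and plastoglobule terms, was at 10.2, 12.8, 5.66, and 9.23 TPM, and up to 7.32 TPM in hMCE replicate 1. For both genes the PEN and MCE libraries overlapped.

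Several members were neighbours or copies of each other. By the order of the identifiers, 11 pairs of members lay within 3 places of each other, and 22 of the 137 members with a chromosome in their identifier took part. BnaA02g14120D and BnaA02g14130D form such a pair, and BnaA02g14130D, annotated only to the extracellular region, was also lower in the gPEN (4.79 and 6.08 TPM) than in the hPEN (9.18 and 14.0 TPM). Whether reads of neighbouring or overlapping genes were told apart by strand is not given in the sources used here.

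The homoeologous pairs to hand, 3847 in all, included 20 members. In 4 pairs both copies were members, and 12 members had a copy that was not. The pair BnaA03g56330D (757, 1355, 220.2, and 268 TPM in gPEN replicates 1 and 2 and hPEN replicates 1 and 2) and BnaC03g16500D was higher from the An copy in all 4 libraries. So was the pair BnaA01g31930D (550.1, 1090.1, 219.5, and 175 TPM) and BnaC01g38770D (271, 625.03, 146, and 75.0 TPM). The An copy was the higher one in each PEN library in the pairs BnaA01g06650D and BnaC01g08000D, and BnaA04g25120D and BnaC04g48990D, as well.

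In the pairs with 1 member, the copies differed to varying degrees, and 4 of the 12 are given here. BnaA08g07420D was at 379.6 and 730.5 TPM in the gPEN and at 231 and 196 TPM in the hPEN, whereas its listed Cn copy BnaC05g19250D was at or below 0.621 TPM in all 4. BnaA04g12190D was at 765 and 1341 TPM in the gPEN and at 129 and 135 TPM in the hPEN, and its Cn copy BnaC04g33470D at 29.6, 83.5, 2.01, and 0.787 TPM. BnaC02g32540D, the Cn copy in its pair, was at 79.6, 153, 66.2, and 84.1 TPM, and the An copy BnaA02g36590D at or below 2.06 TPM. In contrast, BnaC01g38270D (47.7, 57.9, 30.3, and 33.9 TPM) and its An copy BnaA01g30320D (47.5, 56.4, 30.9, and 31.5 TPM) were alike in the PEN, but BnaA01g30320D is no member, and its gOSC libraries reached 49.8 TPM.

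The values of BnaC05g51570D, BnaC05g22440D, and BnaA03g20520D nearly coincided over the series. Where both were at 1 TPM or more, BnaC05g51570D and BnaC05g22440D were within 20% of each other in 54 of 56 libraries. BnaA03g20520D was within that range of BnaC05g51570D in 46 of 55 libraries. Copies of near-identical sequence can lose reads when only uniquely mapped reads are counted. The sequences of these 3 genes were not compared, so the level of each is uncertain and the 3 are not separate evidence. Looser cases by the same limit were BnaAnng19440D with BnaA03g20510D (18 of 27 libraries) and BnaA03g24830D with BnaA02g33330D (11 of 21 libraries). BnaC05g51570D was at 13.7 and 23.5 TPM in the gPEN and at 22.8 and 13.0 TPM in the hPEN, with 22.0 TPM in hCZSC replicate 3.

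The difference between the PEN stages was compared next. The score takes the lower of the gPEN and hPEN means and treats the stages alike, so it did not ask for a direction, but the same 4 libraries chose the members, and the p-values below come from the fit over all genes and do not allow for that choice. Between the stages, 21 of the 150 members fell and none rose (limma, adjusted p under 0.05 over 99343 genes, two-sided). Of all genes tested, 2.21% were lower and 6.35% higher in the hPEN (8.56% in either direction), a background of genes not chosen for their PEN level, so that nothing is read from the difference in shares. A member that rose had to hold its gPEN mean above the hMCE and hCZE, the next subregions for 40 and 27 members. One that fell had to hold its hPEN mean above the gMCE and gCZE, next for 21 and 17. The choice may thus have kept out genes that rose, and nothing is read from the lack of rises. At an unadjusted p under 0.05, 34 members were lower and 0 higher. The median change of the members was -0.20 on the log2(TPM + 1) scale, against -0.00036 for all genes, and 39 members were below -1 and 0 above 1.

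By mean level over the 4 PEN libraries, 10 of the 21 falls were among the 29 members of at least 100 TPM, 10 among the 69 of 10 to 100 TPM, and 1 among the 52 of less. Of all genes at these levels, 20.5%, 9.47%, and 1.54% were lower in the hPEN. The gPEN enters this mean, so a gene that fell is placed higher by its gPEN level, and the counts do not show that falls depend on level.

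The gene with the largest fall was BnaCnng40380D, at 312 and 437 TPM in the gPEN and at 35.1 and 1.82 TPM in the hPEN. The stages did not overlap, and the hPEN libraries differed widely. The log2 change was -5.20 ± 0.72 (SE, adjusted p = 1.28e-07, limma). This SE and those below use a spread estimated over all subregions together. They and their p-values therefore do not measure the spread of the PEN libraries alone, such as that between the hPEN libraries of BnaCnng40380D. With only the PEN libraries in the fit, 3 of the 21 falls were still called, and all 21 stayed below 0. BnaA05g33970D was at 181 and 375 TPM in the gPEN and at 20.2 and 4.86 TPM in the hPEN, a log2 change of -4.55 ± 0.64 (SE, adjusted p = 2.21e-07, limma). BnaC07g35410D fell from 67.0 and 69.0 TPM to 3.96 and 0.957 TPM, a log2 change of -4.47 ± 0.56 (SE, adjusted p = 1.14e-08, limma). BnaCnng45450D fell from 151 and 259.7 TPM to 8.01 and 11.7 TPM, a log2 change of -4.22 ± 0.99 (SE, adjusted p = 0.00186, limma), and lost its call without gPEN replicate 2, at -3.83.

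Other members of high rank that fell were BnaA10g26720D (log2 change -3.86 ± 0.57, SE, adjusted p = 5.44e-07, limma), BnaC07g26840D (-3.51 ± 0.89, SE, adjusted p = 0.00437, limma), and BnaC03g16500D (-2.43 ± 0.77, SE, adjusted p = 0.0321, limma). Of the 3 members annotated only to the extracellular region, BnaA06g00580D and BnaC06g07020D fell and BnaA02g14130D did not pass the test. Among all 633 tested genes with that term, 8.37% were lower and 10.3% higher in the hPEN. BnaA06g00580D went from 114 and 184 TPM to 15.0 and 17.8 TPM (log2 change -3.07 ± 0.64, SE, adjusted p = 0.000401, limma). BnaC06g07020D went from 136 and 199 TPM to 18.1 and 22.2 TPM (log2 change -2.97 ± 0.71, SE, adjusted p = 0.00211, limma). BnaA03g20750D, annotated with ubiquitin-protein transferase activity, the step that attaches ubiquitin to target proteins, went from 10.3 and 18.4 TPM to 3.48 and 0.399 TPM (log2 change -2.56 ± 0.53, SE, adjusted p = 0.000301, limma).

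The Rubisco-annotated members did not pass the test, with log2 changes of -0.16 ± 0.81 in BnaA02g12810D and -0.82 ± 0.79 in BnaC02g17140D (SE, adjusted p = 0.9999 for both, limma). Nor did the pair with the ion channel inhibitor term, with -1.39 ± 0.81 in BnaA04g25120D and -1.55 ± 0.74 in BnaC04g48990D (SE, adjusted p = 0.492 and 0.277, limma). Of the 1409 tested genes in the plastid and photosynthesis list, 146 were higher and 59 lower in the hPEN, and none of its 9 members was called. For the narrower term photosynthesis, which both Rubisco-annotated members carry and which was looked at after the values were seen, 2 of 47 genes were higher and 12 lower, with a median log2 change of -0.96. The largest positive change among all members was 0.95 ± 0.63 in BnaA02g14130D (SE, adjusted p = 0.649, limma). Those with little change included BnaA02g24840D at 0.14 ± 1.03 and BnaC02g32990D at -0.42 ± 1.10 (SE, adjusted p = 0.9999 for both, limma), where 1 SE was larger than the change itself.

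**Figure D5:**
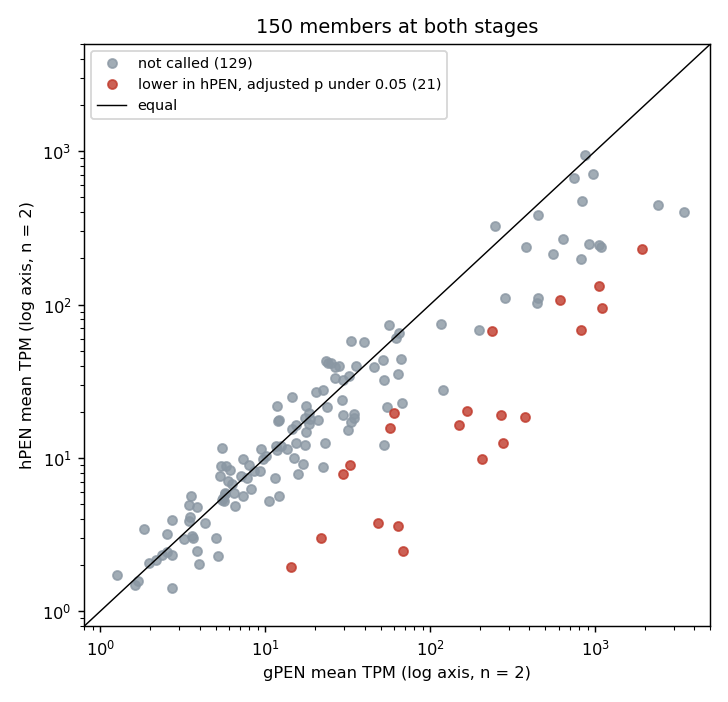
Mean TPM of the 150 members in the gPEN (x) and the hPEN (y), both on log axes with 2 libraries each, and the line of equal levels. The 21 red points passed the test and all lie below the line, and the 129 gray points did not, with a largest log2 change of 0.95.

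Genes listed as markers of other tissues moved between the PEN stages as well. The 28 storage protein and oleosin genes of the embryo list summed to 63.1 and 77.5 TPM in the gPEN and to 253 and 429 TPM in the hPEN. The list holds 2 genes named CRB that were near 0 in the mature green embryo (0.133 and 0.065 TPM in the mgCOT, means). Without this pair, which was dropped only once its values were known, the other 26 summed to 30.7 and 36.7 TPM in the gPEN and to 250.2 and 426 TPM in the hPEN, and 15 of the 26 were higher in both hPEN libraries than in both gPEN libraries. These 26 genes were not particular to the embryo at the heart stage. Their sum was 156 to 1176 TPM in the hEP, 113 to 464 TPM in the hMCE, and 156 to 376 TPM in the hCPT. It was lower in the hISC (46.1 to 196 TPM) and the hCZE (4.57 to 61.2 TPM). The 4 WIH copies, listed as markers of chalazal maternal tissue, summed to between 34.6 and 46.2 TPM in the gPEN. In the hPEN they summed to between 126 and 159 TPM, with 3 of 4 higher. At the heart stage these copies were not particular to the CZSC. Their sum was 53.6 to 162 TPM in the hCZSC and 219 to 237 TPM in the hISC. The WIH2 copies made up most of the hPEN sum, with means of 57.9 and 80.0 TPM. Both CEP1 copies were higher in the hPEN. The part of these in the falls was not tested. The count of 21 depends on few libraries: without gPEN replicate 2 it was 9, without hPEN replicate 2 it was 10, without hPEN replicate 1 it was 13, and without gPEN replicate 1 it was 14, and with only the 4 PEN libraries in the fit it was 3. In each of these the 21 genes were all still below 0.

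Outside the stages that chose them, the members were lowest in the mature green embryo, where they summed to 25.1 to 55.0 TPM. Their sum was 867 to 1611 TPM in the ovule libraries and 387 to 688 TPM in the mature green maternal libraries. The highest of the 26 subregion means was in the gPEN for 89 members and in the hPEN for 33. It was in the ovISC for 14, the ovCPT for 7, the ovCZSC for 4, the mgISC for 2, and the mgOSC for 1. In total, 106 members had their lower PEN mean above every ovule and mature green mean. The rule chose on the PEN side of this comparison, and no share over all genes was computed, so the count is a description.

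Those led by ovule integuments included some of the clearest falls from ovule to mature green. Over the maternal subregions, 50 members were lower and 17 higher at the mature green stage than in the ovule (limma, adjusted p under 0.05). Of all genes tested, 39.5% were lower and 17.4% higher (56.9% in either direction), so that the shares among the members, 33.3% and 11.3%, were not above the background. The median change was -0.04 for the members and -0.14 for all genes. The split depended on scaling: with TPM rescaled without the 50 most abundant genes 42 members were lower and 32 higher, and after quantile normalization 34 were lower and 37 higher. Without the 4 mature green libraries of differing tissue label, 49 were lower and 10 higher. For these settings the shares of all genes are not given here, and nothing about the members is read from the counts.

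BnaA03g03180D had 32.1 to 86.2 TPM (median 65.8) in the 11 ovule libraries and 1.42 to 10.97 TPM (median 5.04) in the 10 mature green maternal libraries, a log2 change of -3.47 ± 0.33 (SE). BnaC05g01460D had 9.23 to 128 TPM (median 24.2) in the ovule and 0.677 to 4.38 TPM (median 1.35) at the mature green stage (log2 change -3.34 ± 0.26, SE), and its ovISC mean of 84.3 TPM was above both PEN means. BnaC04g46860D went from 17.4 to 122 TPM in the ovule (median 51.7) down to 0.0214 to 30.1 TPM (median 3.64), with overlap (log2 change -3.33 ± 0.38, SE). BnaA10g01420D showed no overlap, with 5.34 to 87.6 TPM (median 17.5) against 0.0155 to 3.51 TPM (median 0.997), and a log2 change of -3.23 ± 0.32 (SE). In BnaC05g01460D, BnaC04g46860D, and BnaA10g01420D the ovISC mean was the highest of all subregions.

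The rises were small in level. BnaC02g32540D had at most 2.41 TPM in the ovule (median 0.232) and 0.243 to 7.65 TPM (median 3.44) in the mature green maternal libraries, a log2 change of 1.44 ± 0.36 (SE, adjusted p = 0.000524, limma). BnaC02g17150D, beside the Rubisco-annotated BnaC02g17140D, had a median of 0.482 TPM and then of 2.45 TPM (log2 change 1.19 ± 0.31, SE, adjusted p = 0.000772, limma). BnaC08g19710D (log2 change 1.19 ± 0.35, SE, adjusted p = 0.00336, limma) and BnaA07g11620D (1.07 ± 0.38, SE, adjusted p = 0.0140, limma) also rose. The highest value of BnaC08g19710D, 17.6 TPM, was in the mgCZSC library with no replicate number, and BnaA07g11620D lost its call without mgISC replicate 1, at 0.76. Without that library 9 members were higher in all, against 17 with it.

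In the mature green seed the members were low in the libraries titled as embryo. Their summed level was 25.1 to 55.0 TPM there and 387 to 688 TPM in the maternal libraries, without overlap, and mgCOT replicates 1 and 2, labelled as seed coat, had 47.1 and 25.1 TPM. In the comparison of mgCOT and mgROOT with the maternal subregions, 124 members were lower and 0 higher (limma, adjusted p under 0.05), and at an unadjusted p under 0.05 they were 125 and 0. Of all genes tested, 94.0% were lower and 0.0715% higher (94.1% in either direction), and the median change was -1.17 for the members and -1.08 for all genes, so the members followed the table as a whole. In these embryo libraries 2597 to 6160 genes were above 1 TPM, against 34389 to 91094 in the maternal ones. The 26 storage genes without CRB did not separate the groups, with 22904 to 67359 TPM in the embryo libraries and 4624 to 83214 TPM in the maternal ones, and their part in the comparison was not tested. With the 4 libraries of differing tissue label left out, a check added after the data were seen, 92 members were lower and 0 higher. Quantile normalization left 26 members lower and 31 higher, and rescaling without the 50 most abundant genes left 98 lower and 1 higher. The shares of all genes under these settings are not given here, so nothing about the members is read from these counts.

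The largest fall was in BnaC02g03550D, a broadly transcribed member with 38.3 to 376 TPM (median 115) in the mature green maternal libraries and 1.43 to 5.83 TPM (median 2.46) in the embryo libraries, a log2 change of -4.90 ± 0.40 (SE, adjusted p = 3.54e-15, limma). It was also at 8.32 TPM or more in every globular and heart library, and its PEN libraries read 164, 333, 325, and 327 TPM. BnaC05g22440D, BnaA03g20520D, and BnaC05g51570D, whose values nearly coincide, followed with log2 changes of -2.91 ± 0.46, -2.91 ± 0.48, and -2.89 ± 0.47 (SE).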

How the data were processed

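The deposited TPM values were used, 1 per gene and library, for 74 libraries. The authors aligned the reads with HISAT2 and counted them with featureCounts, per the labels, with versions not given in the sources used here. Whole reads were recovered from TPM steps for 83.2% of genes and serve only as a lower limit of depth. Subregions were compared with limma 3.58.1 in R 4.3.3 on log2(TPM + 1), with a variance trend and 1 mean per subregion, for the 99343 genes whose average reached 1 TPM in any subregion. Tests were two-sided, with Benjamini-Hochberg adjustment over all genes tested and a limit of 0.05. Fold changes on this scale understate those of low genes. Libraries are pools of sections, so that p-values measure the spread between pools. The spread of each gene was estimated from all 74 libraries over the 26 subregions together. The SE and p-values between the PEN stages therefore rest more on other tissues than on the PEN libraries.

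The genes named are the 12 of highest score, 3 on each side of the limit, the 5 of highest mean PEN level, up to 4 rises and 4 falls per comparison, and up to 4 per annotation list. Others, such as copies, neighbours, and further annotated or called genes, were chosen after their values were seen. Members and lists were chosen with earlier results of these data known. GO terms and homoeologous pairs came from the study's listings, which are incomplete. Alternatives were pseudocounts of 0.1 and 5 TPM, other filters and scalings, array quality weights, a replicate block, and leaving out libraries. The fits were tested on simulated data. Tables and figures used pandas 2.3.3, numpy 2.4.6, and matplotlib 3.10.9.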

Additional observations from a re-analysis of the deposited data

Results flagged for a closer look

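In 4 of 39 tests, each of 1 gene or of the summed members in 1 subregion, 1 library lay far from the others. Chance gives about 1 in 20 for independent tests. These tests share libraries, and most of the 4 results come from gEP replicate 3, so nothing is read from the share. In gEP replicate 3, BnaA03g56330D was at 0.379 TPM and BnaA04g25130D at 0.375 TPM, which is 2 reads each, and BnaC02g32990D was at 2.12 TPM, or 9 reads. The other 3 gEP libraries had 0 reads of each gene, and their small listed values (up to 0.0322 TPM) stand for 0 reads. In gEP replicates 1 and 2, 1 read of a gene of median value was worth 1.15 and 1.23 TPM, so the levels of BnaA03g56330D and BnaA04g25130D lie below 1 read there. In hMCE replicate 2, BnaA02g14120D was at 5.86 TPM from 16 reads, against 2.18 to 2.62 TPM from 3 to 17 reads in the other 3 hMCE libraries. The cause was not tested.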

How the results depend on the processing

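Of the 150 genes, 85 stayed among the 150 highest scores with TPM rescaled without the 50 most abundant genes, and 100 to 133 stayed when a PEN library was left out. The 21 genes called between the PEN stages became 5 with a pseudocount of 0.1 TPM, 35 with one of 5 TPM, 45 with array quality weights (1 higher and 44 lower, from a weight estimate that did not fully converge), and 3 with only the PEN libraries in the fit. Leaving out 1 PEN library left 9 to 14. The 124 genes called in the mature green embryo became 57 after quantile normalization and 111 to 131 when 1 library was left out. The 67 called between mature green and ovule maternal subregions became 58 to 75 when 1 library was left out. The alternatives were followed gene by gene only for the largest changes, 4, 4, and 8 genes in the 3 comparisons, for which 46 of 52, 100 of 100, and 245 of 248 values kept the call and none reversed. Of the 21 genes called between the PEN stages, 3 to 21 were still called under the alternatives, and all 21 stayed below 0. The causes were not tested, and the shares of all genes under the alternatives are not given here. Depth limits the low members most, since 1 read was worth 0.0765 to 0.106 TPM for a gene of median value in the PEN.

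Libraries of equal replicate number were not treated as pairs. The deviations of same-numbered gPEN and hPEN libraries correlated at 0.0048, and with 2 libraries a group both numbers give the same value. The other pairs ranged from -0.611 to 0.381. Above 0.1 were 7 of 28 pairs in the mature green comparison and 5 of 59 in that of mature green with ovule. With a replicate block, 22, 125, and 65 genes were called in the 3 comparisons.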
